A study of Mus musculus with 1528 samples.

Results

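Bone marrow–derived macrophages (BMDMs) secrete a set of proteins when IL4 and IL13 drive them into the alternative, or M2, state, and 5 genes that encode such products were followed here cell by cell: *Retnla*, *Chil3*, *Ear2*, *Ccl24* and *Fn1*. They were chosen by name as secreted M2 markers, and all 5 were found among the 55421 genes of the count table. The cells came from the bone marrow of 2 wild-type mice labelled C57BL/6 (the study's methods give C57BL/6J) and were grown with M-CSF. They were given IL4+IL13 or IL4+IL13+TNF over 24 h, with every cytokine at 10 ng/ml. Both groups thus carried IL4 and IL13, and they are called below by what differs, without TNF and with TNF. There was no unstimulated group, and the methods name male C57BL/6J mice for BMDM culture and give no age for them. Live cells were sorted singly into 4 plates and made into Smart-seq2 libraries, in which full-length cDNA of each cell is amplified without molecular identifiers. Plates 2 and 3 held mouse 1 and plates 4 and 5 held mouse 2, each with both treatments in separate blocks of rows, so that treatment and position on the plate cannot be told apart. The filter on poor wells kept 1386 of 1524 wells. Of the kept cells, 357 came from mouse 1 and 333 from mouse 2 without TNF, and 347 and 349 with TNF.

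IL4 and IL13 share the receptor chain IL4Rα and act through the transcription factor STAT6, and the secreted products of this program act on the tissue around the macrophage. *Retnla* encodes RELMα, a small cysteine-rich protein of type 2 inflammation and wound repair. *Chil3* encodes Ym1, a chitinase-like lectin. *Ear2* encodes a ribonuclease of the eosinophil-associated family, *Ccl24* encodes eotaxin-2, a chemokine that attracts eosinophils through the receptor CCR3, and *Fn1* encodes fibronectin, a glycoprotein of the extracellular matrix that cells bind through integrins. TNF is an inflammatory cytokine that opposes parts of the M2 program, and the comparison asks how these products behave when it is present together with IL4+IL13.

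In the mm10 coordinates of the count table, *Retnla* (ENSMUSG00000061100) lies on chr16:48842551-48844461 on the plus strand and *Chil3* (ENSMUSG00000040809) on chr3:106147554-106167564 on the minus strand. *Ear2* (ENSMUSG00000072596) lies on chr14:44102654-44103534 on the plus strand, *Ccl24* (ENSMUSG00000004814) on chr5:135569937-135573049 on the minus strand and *Fn1* (ENSMUSG00000026193) on chr1:71585520-71653200 on the minus strand. Their exons add up to 599, 1632, 719, 1295 and 11685 bases, in the order of the list. *Chil3* and *Ear2* have close relatives in the genome. The counting kept uniquely mapped fragments, so their values are uncertain where a fragment fits more than 1 copy.

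The promoters of 3 members were available from RefSeq (GRCm38.p6), and the 250 bases before the start site are shown because they are where STAT6 and its partners are looked for. Capitals mark matches to 3 motifs that were searched on both strands: TTC and GAA with any 4 bases between them (STAT6), TGANTCA (AP-1) and TTGCNNAA (C/EBP). *Retnla* is at chr16:48842359-48842608 on the plus strand, *Chil3* at chr3:106167565-106167814 on the minus strand and *Ear2* at chr14:44102404-44102653 on the plus strand. For *Retnla* the window runs past base 48842551, where the gene begins in the count table, so its start site differs between the sources. Positions are counted from the start site of the promoter window.
Retnla: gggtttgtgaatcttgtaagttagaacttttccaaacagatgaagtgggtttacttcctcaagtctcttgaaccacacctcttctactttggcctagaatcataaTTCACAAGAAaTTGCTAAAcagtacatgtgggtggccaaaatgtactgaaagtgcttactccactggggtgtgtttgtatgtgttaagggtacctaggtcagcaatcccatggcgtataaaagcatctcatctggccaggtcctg
Chil3: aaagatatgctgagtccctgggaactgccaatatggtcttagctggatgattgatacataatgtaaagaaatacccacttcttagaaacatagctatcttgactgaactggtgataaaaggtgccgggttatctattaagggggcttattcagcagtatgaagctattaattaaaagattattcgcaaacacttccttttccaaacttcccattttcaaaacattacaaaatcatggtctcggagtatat
Ear2: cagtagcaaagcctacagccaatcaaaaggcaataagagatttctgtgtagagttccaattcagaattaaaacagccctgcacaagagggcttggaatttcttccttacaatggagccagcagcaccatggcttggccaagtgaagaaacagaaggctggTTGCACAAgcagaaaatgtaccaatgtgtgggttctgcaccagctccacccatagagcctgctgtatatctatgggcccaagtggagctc

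The *Retnla* promoter held 1 STAT6 match, from base -145 to -136 before the start site (chr16:48842464-48842473), and 1 C/EBP match directly beside it, from -134 to -127 (chr16:48842475-48842482). The STAT6 match reads the same pattern on both strands. The *Ear2* promoter held 1 C/EBP match, from -90 to -83 (chr14:44102564-44102571). In windows of 300 bases, 250 before and 50 after the start site, the STAT6, AP-1 and C/EBP patterns occurred in 6.95%, 7.81% and 10.8% of 32851 promoters. The *Chil3* window held none of the 3 patterns, which says only that these letters are not in this window. A match is a description of the sequence and not a site of binding.

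Most cells held no fragment of a given member, except for *Retnla* in mouse 2, and a few cells held very much. Without TNF, 270 of 357 cells of mouse 1 had no *Retnla* fragment and 13 cells were over 100 CPM (fragments of the gene per 1000000 fragments of the cell), up to 13031 CPM. In mouse 2, 38 of 333 cells had none and 39 were over 100 CPM, up to 33720 CPM. For *Chil3*, *Ear2* and *Ccl24*, no cell of mouse 1 was over 100 CPM without TNF, which allows a share of up to 0.840% (3 of 357 cells). Over all 4 sets of cells, meaning each mouse under each treatment, 60 of 1386 cells (4.33%) were over 100 CPM for *Retnla*, 29 (2.09%) for *Ccl24*, 26 (1.88%) for *Fn1*, 21 (1.52%) for *Chil3* and 17 (1.23%) for *Ear2*. The cut of 100 CPM marks a range and not a cell type. Between 50 and 200 CPM lay 20 cells for *Retnla*, 17 for *Chil3*, 18 for *Ear2*, 59 for *Ccl24* and 16 for *Fn1*, so the cut divides *Ccl24* cells least cleanly.

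**Figure D1:**
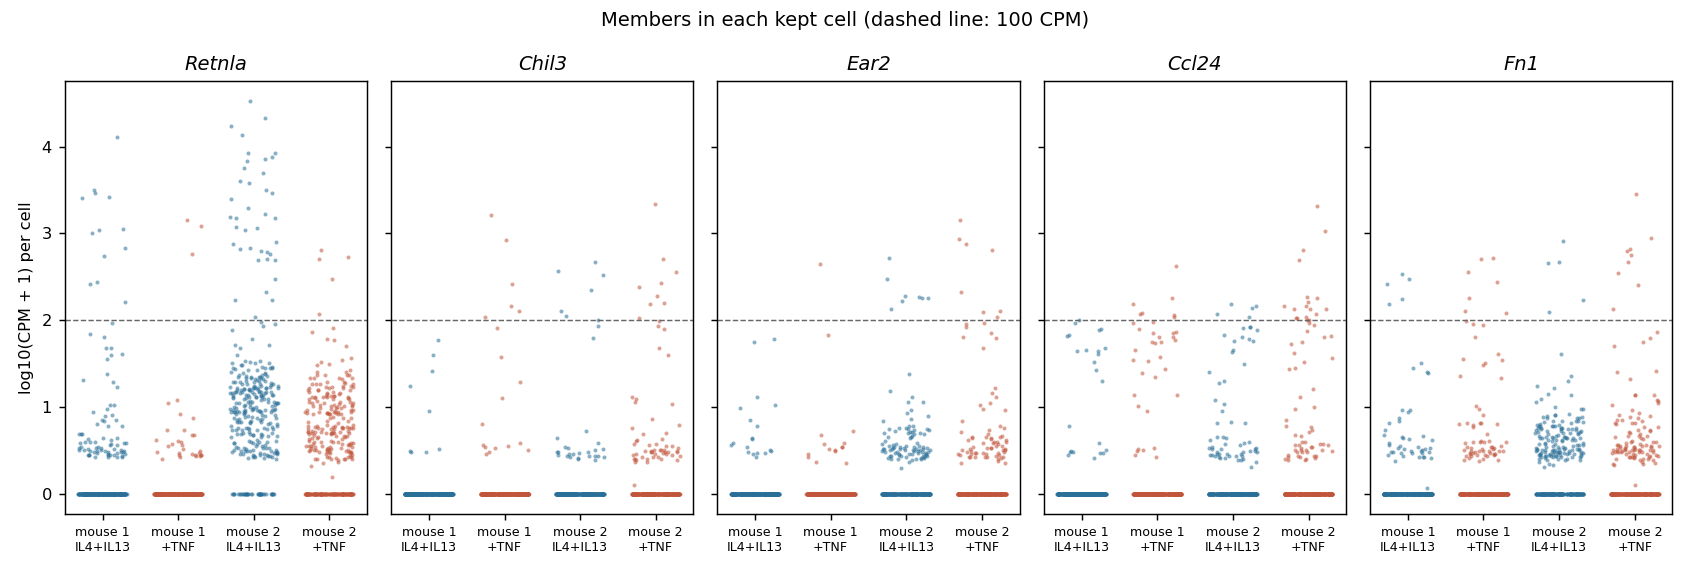
Each point is 1 kept cell, the y axis gives log10(CPM + 1) of the member, and the x axis gives the mouse and the treatment (blue, IL4+IL13, and red, IL4+IL13+TNF). Above the dashed line at 100 CPM, *Retnla* has 13 cells in mouse 1 and 39 in mouse 2 without TNF against 3 and 5 with it, and mouse 2 has a broad band of cells with low values.

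*Retnla* was lower with TNF in both mice and on all 4 plates. Its summed level, in CPM scaled by edgeR's TMM method, was 84.0 and 491 without TNF in mouse 1 and mouse 2, and 11.2 and 12.1 with TNF, which is 287 ± 288 against 11.7 ± 0.650 (mean ± SD, n = 2 mice). The groups did not overlap, and the mice differed 5.84-fold without TNF and 1.08-fold with TNF. By plate, the level was 21.1, 144, 290 and 723 CPM on plates 2 to 5 without TNF and 14.2, 8.85, 15.3 and 9.08 CPM with TNF. Plate 2 was the exception in size: there *Retnla* was 1.47-fold lower, against 15.4-fold, 18.4-fold and 75.4-fold on plates 3, 4 and 5. Single cells weigh on these folds: 1 cell held 82.5% of the plate 2 *Retnla* fragments with TNF, and 1 held 52.7% of those of plate 3 without TNF. Here and below, folds within a plate or mouse were taken after 0.5 CPM was added, which shrinks folds at low levels. Folds between mice were taken without it. The log2 fold change over the 4 sums was -4.62 ± 0.90 (SE). Its adjusted p was 0.277 by the quasi-likelihood test of edgeR, after Benjamini-Hochberg adjustment over 17034 genes and a threshold of 0.05. The same mice gave both treatments, and with the mouse as a replicate block the change was -4.13 ± 0.63 with an adjusted p of 0.0350, which was 0.0550 without the highest cell of each sum. DESeq2 without the block gave -4.63 ± 0.64 with an adjusted p of 1.13e-10. The sum of mouse 2 without TNF set the size: without that sum the change was -2.84, and without the sum of mouse 1 without TNF it was -5.40, with an adjusted p of 0.0168 by edgeR.

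*Ccl24* was higher with TNF in both mice and on all 4 plates. Its summed level was 2.09 and 4.70 CPM without TNF in mouse 1 and mouse 2 and 6.43 and 20 CPM with TNF. The groups did not overlap. By plate, it was 2.58, 1.61, 3.40 and 6.22 CPM on plates 2 to 5 without TNF and 9.89, 3.68, 25 and 15.1 CPM with TNF, between 1.98-fold and 6.54-fold higher on the same plate. The log2 fold change was 1.96 ± 0.69 (SE), with an adjusted p of 0.562 by edgeR's quasi-likelihood test. With the mouse as a block it was 1.86 ± 0.24 with an adjusted p of 0.0252, and DESeq2 gave 1.95 ± 0.60 with an adjusted p of 0.0355. Without the sum of mouse 2 with TNF it was 0.92.

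*Chil3* was also higher with TNF on all 4 plates, and did not pass the threshold. Its summed level was 0.385 and 4.70 CPM without TNF in mouse 1 and mouse 2 and 8.43 and 14.2 CPM with TNF. These groups did not overlap either. The difference was 10.1-fold in mouse 1 and 2.84-fold in mouse 2, and on plate 4 it was 1.34-fold. In mouse 1 the added 0.5 CPM exceeds the level without TNF, so that fold is smaller than the ratio of the levels. The log2 fold change was 2.16 ± 1.12 (SE), with an adjusted p of 0.734 by edgeR's quasi-likelihood test, 0.10 with the mouse as a block and 0.193 with DESeq2. In mouse 1 without TNF the level rested on 70 fragments in 9 cells, and the change was 1.26 without that sum and 4.88 without the sum of mouse 2 without TNF.

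*Ear2* and *Fn1* had higher sums with TNF in each mouse but not on each plate. *Ear2* was at 0.402 and 6.58 CPM without TNF in mouse 1 and mouse 2 and at 1.29 and 13.7 CPM with TNF. Its plates 3, 4 and 5 were 4.32-fold, 2.40-fold and 1.34-fold higher with TNF, and plate 2 was 2.10-fold lower at 0.673 against 0.0582 CPM. The groups overlapped, since mouse 2 was above mouse 1 by 16.4-fold without TNF and by 10.6-fold with TNF. *Fn1* was at 3.60 and 6.77 CPM without TNF and at 6.81 and 18.6 CPM with TNF, so that its groups barely separated. Without the TMM scaling they overlapped: mouse 2 without TNF had 1141 *Fn1* fragments of 162260282, and mouse 1 with TNF had 1058 of 162464577. On the TMM scale, by plate, the direction was mixed. *Fn1* was 1.31-fold, 2.61-fold and 7.33-fold higher with TNF on plates 2, 3 and 5 and 1.38-fold lower on plate 4. The log2 fold changes were 1.10 ± 1.52 for *Ear2* and 1.29 ± 0.59 for *Fn1* (SE), with adjusted p-values of 0.935 and 0.681 by edgeR's quasi-likelihood test. With the mouse as a block the adjusted p-values were 0.0698 and 0.0675. Without the sum of mouse 2 with TNF the changes were -1.43 for *Ear2* and 0.39 for *Fn1*.

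**Figure D2:**
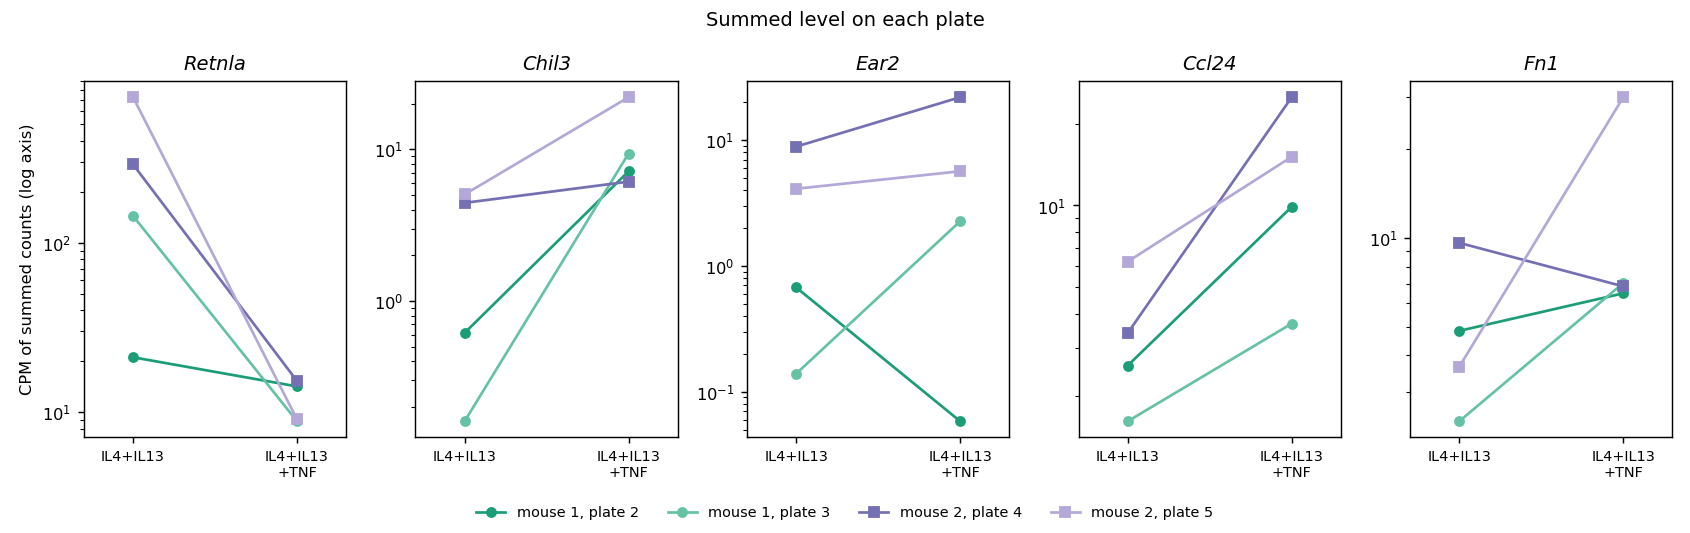
The y axis gives the CPM of the summed counts on a log axis, the x axis the treatment, and each line joins both treatments of 1 plate (circles, mouse 1, and squares, mouse 2). *Retnla* goes down on all 4 lines, *Chil3* and *Ccl24* go up on all 4, and *Ear2* goes down on plate 2 and *Fn1* on plate 4.

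The counts over members read as follows against all genes. By edgeR's quasi-likelihood test without a block, 0 of 5 members and 1 of 17034 genes (0.00587%) passed. At an unadjusted p under 0.05, *Ccl24* was among the 3.68% of genes higher with TNF and *Retnla* among the 4.43% lower, with unadjusted p-values of 0.0364 and 0.00364. With the mouse as a block, the same 2 members passed, where 1.94% of genes were called higher and 1.88% lower. With DESeq2 they passed again, where 1.98% of the genes with an adjusted p were called higher and 1.9% lower. An exact permutation test over these 4 sums can give no two-sided p below 0.333, and one that exchanges the treatments within each mouse none below 0.5. Groups without overlap, as for *Retnla*, *Ccl24* and *Chil3*, and for *Fn1* with the TMM scaling, are thus a common outcome for 4 sums. Their share over all genes was not counted, so no result about the members is read from them.

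The sums of all 5 members rested on few cells, and for some on 1 cell. Without TNF, 1 cell held 46.2% of all *Retnla* fragments of mouse 1 and 1 cell held 20.6% of those of mouse 2. With TNF, 1 cell of mouse 1 held 77.1% of the *Ear2* fragments and 1 held 52.0% of the *Chil3* fragments, and in mouse 2 single cells held 49.2% for *Chil3*, 36.2% for *Fn1*, 30.8% for *Ear2* and 30.8% for *Ccl24*. Ranked by CPM, 2 cells carried 50% of the summed *Retnla* CPM in mouse 1 without TNF, and 5 cells carried it in mouse 2. The 5% of cells with the most *Retnla* carried 98.7% and 88.4% of its summed CPM without TNF, and 99.2% and 63.7% with TNF, in mouse 1 and mouse 2. For *Ccl24* these shares were 98.6% and 88.3% without TNF and 83.4% and 87.1% with TNF. A member found in fewer than 5% of cells reaches a share of 100% by its rarity alone.

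**Figure D3:**
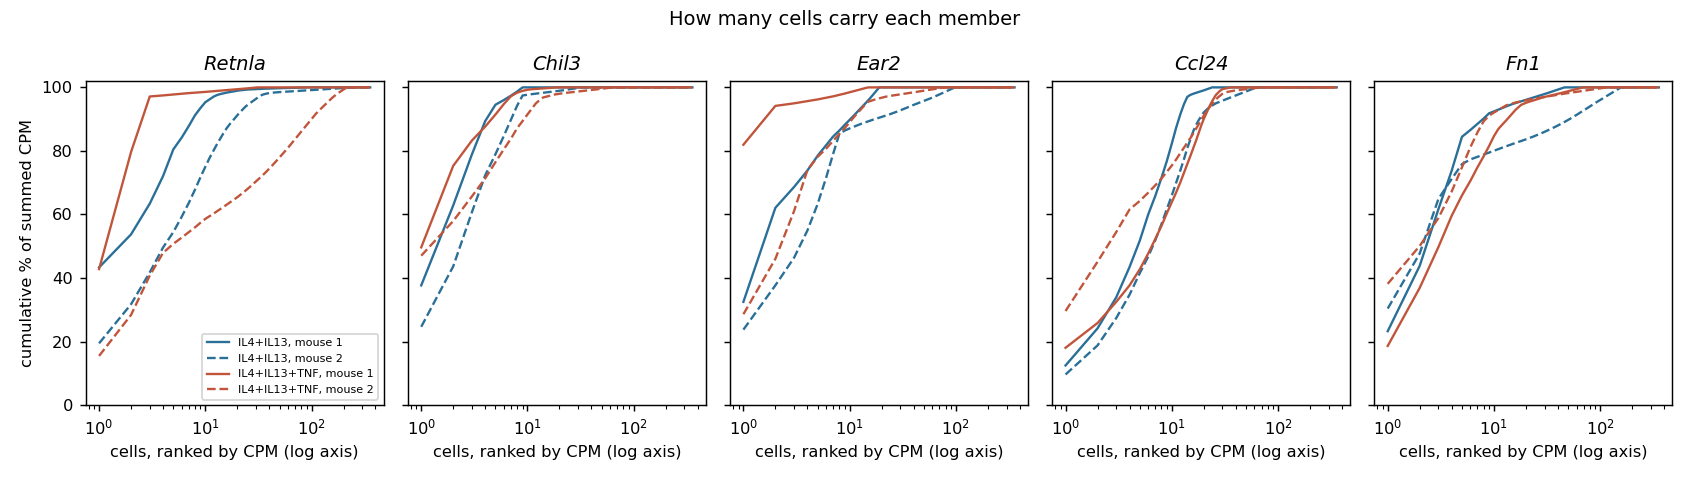
The x axis ranks the kept cells of a mouse and treatment by CPM on a log axis, and the y axis gives the cumulative percentage of summed CPM (blue, IL4+IL13, red, IL4+IL13+TNF, solid, mouse 1, and dashed, mouse 2). The curve for *Retnla* with IL4+IL13+TNF in mouse 2 is the slowest of its panel, with 63.7% in the 5% of cells with the most.

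The CPM values in this paragraph are per total fragments of the sum, without the TMM scaling used above. Without the cell with the most fragments of a member in each of the 4 sums, *Retnla* was at 46.3 and 406 CPM without TNF and at 5.81 and 9.93 CPM with TNF in mouse 1 and mouse 2. Its log2 fold change was then -4.75 without the block, and with the block its adjusted p moved from 0.0350 to 0.0550, past the threshold. *Ccl24* was at 1.89 and 4.4 CPM against 5.38 and 13.5 CPM, with a log2 fold change of 1.68 and an adjusted p of 0.0332 with the block. *Ear2* in mouse 1 was at 0.265 against 0.284 CPM, a log2 difference of 0.04, where it had been 0.99 with the cell and with TMM scaling. *Chil3* was at 0.276 and 3.94 CPM against 3.88 and 7.08 CPM, and *Fn1* at 2.64 and 4.97 CPM against 5.23 and 11.6 CPM. All of these values left the direction of the 5 members as it was in each mouse.

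**Figure D4:**
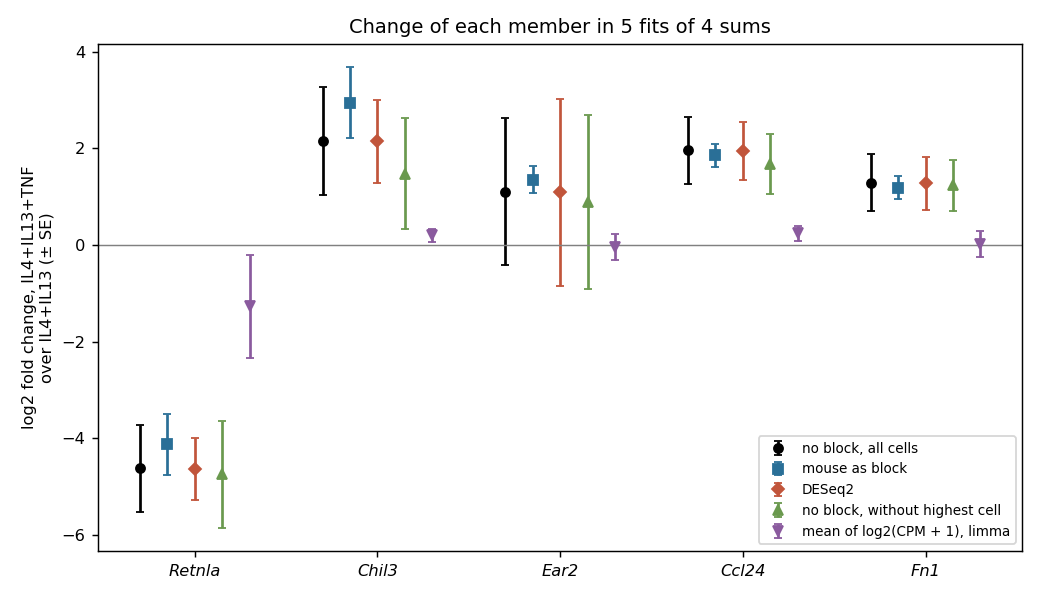
The y axis gives the log2 fold change of IL4+IL13+TNF over IL4+IL13 with its SE for each member in 5 fits of the 4 sums (edgeR without and with the mouse as a block, DESeq2, edgeR without the highest cell of each sum, and limma on the mean of log2(CPM + 1) per cell). *Retnla* is below 0 in all 5 fits, and in limma on the per-cell means, where rare high cells weigh little, the 5 members lie between -1.27 and 0.24.

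The number of cells over 100 CPM was lower with TNF for *Retnla* in each mouse. It was 13 of 357 (3.64%) and 39 of 333 cells (11.7%) without TNF, and 3 of 347 (0.865%) and 5 of 349 cells (1.43%) with TNF, in mouse 1 and mouse 2. The median of these cells was 1094 and 1515 CPM without TNF and 1227 and 508 CPM with TNF, where the last 2 medians rest on 3 and 5 cells. For *Ccl24* the cells over 100 CPM numbered 0 and 5 without TNF and 7 and 17 with TNF. The 0 of mouse 1 depends on the cut: its highest cell was at 99.3 CPM, and the 7 cells with TNF had a median of 120 CPM. For *Chil3* the cells over 100 CPM numbered 0 and 6 against 6 and 9, for *Fn1* 5 and 5 against 7 and 9, and for *Ear2* 0 and 8 against 1 and 8. With 2 mice per treatment these counts were compared by no test.

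Below the high cells lay a second range of low values that followed the mouse. Without TNF, 74 of 357 cells of mouse 1 (20.7%) and 256 of 333 cells of mouse 2 (76.9%) had *Retnla* between 0 and 100 CPM, with medians of 2.80 and 9.04 CPM. With TNF these were 28 cells (8.07%) and 213 cells (61.0%), with medians of 2.44 and 5.70 CPM. *Fn1* showed the same order of mice, with 42 and 152 low cells without TNF and 62 and 105 with TNF. The low *Retnla* cells held little of the sum without TNF, where 97.6% and 98.1% of its CPM lay in cells over 100 CPM, and more with TNF in mouse 2, where that share was 50.8%.

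To compare how many cells held a fragment, every cell was drawn down to 339000 fragments. This dropped 136 shallower cells, 25 and 24 of them without TNF and 44 and 43 with TNF in mouse 1 and mouse 2. *Retnla* was then found in 21.4% of cells of mouse 1 without TNF (95% Clopper-Pearson interval 17.1% to 26.2%) and in 5.94% with TNF (3.56% to 9.23%). In mouse 2 it was found in 82.8% (78.2% to 86.9%) and 59.2% (53.4% to 64.7%). The intervals cover counting error only. The share was lower with TNF on all 4 plates, from 80.2% to 70.3% on plate 4 and from 85.7% to 49.1% on plate 5. With at least 5 fragments required, it was 6.93% and 35.9% without TNF and 0.990% and 15.4% with TNF.

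For the other members, the share of cells did not follow the summed level in each case. *Fn1* was found in 9.94% of cells of mouse 1 without TNF (6.94% to 13.7%) and 14.9% with TNF (11% to 19.4%). In mouse 2 it went the other way, from 41.4% (35.9% to 47.1%) to 26.8% (21.9% to 32.1%), while its summed level was 2.63-fold higher with TNF. *Ear2* was found in 3.61% and 22.3% of cells without TNF and in 4.29% and 15.4% with TNF in mouse 1 and mouse 2, again with a higher sum and a lower share in mouse 2. With at least 5 fragments required, neither share was lower with TNF in mouse 2, and the intervals of both treatments overlapped. *Fn1* was then found in 3.88% of cells without TNF (2.02% to 6.69%) and 4.90% with TNF (2.77% to 7.96%). *Ear2* was found in 3.24% (1.56% to 5.87%) and 4.58% (2.52% to 7.56%). By plate, *Fn1* went from 4.32% to 2.07% on plate 4 and from 3.40% to 7.45% on plate 5. With at least 1 fragment, *Ccl24* was found in 6.63% and 14.6% against 9.57% and 17.6%, and *Chil3* in 2.41% and 8.41% against 5.28% and 14.4%. For *Ccl24*, *Chil3* and *Ear2* the intervals of both treatments overlapped in each mouse. Without thinning, *Retnla* was found in 88.6% of the mouse 2 cells without TNF.

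**Figure D5:**
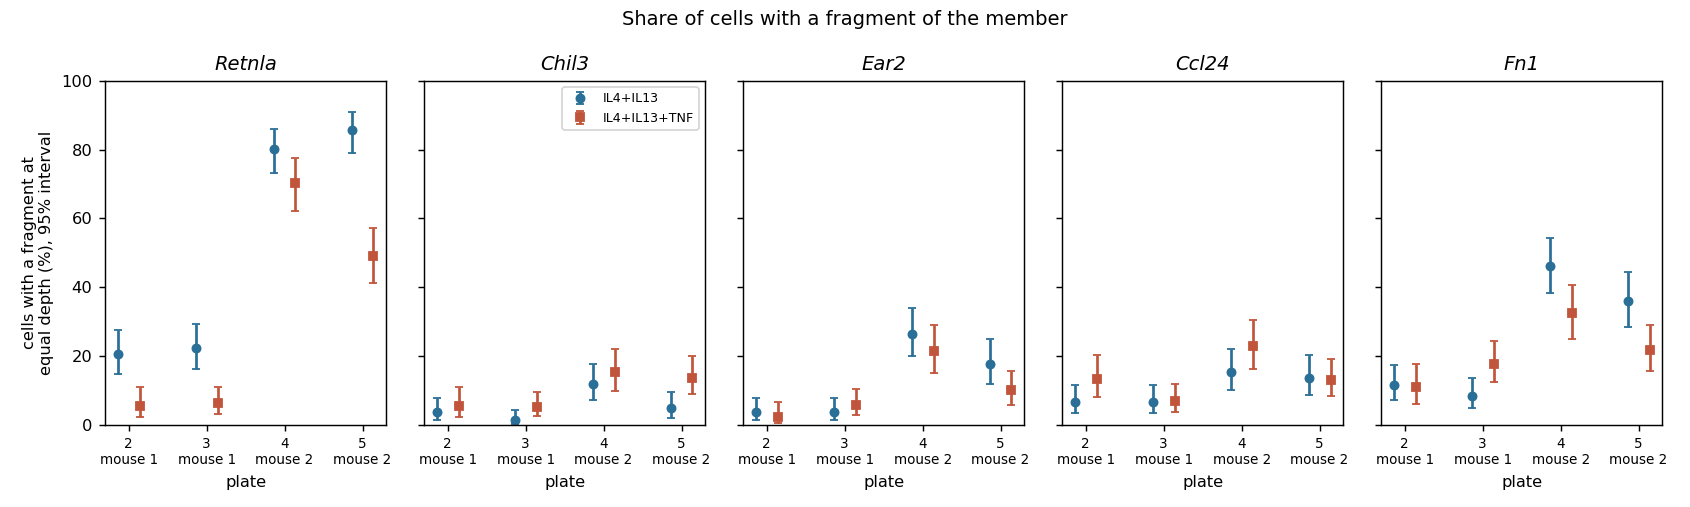
The y axis gives the percentage of thinned cells with at least 1 fragment of the member with its 95% Clopper-Pearson interval, and the x axis the plate and its mouse (circles, IL4+IL13, and squares, IL4+IL13+TNF). On plates 4 and 5, those of mouse 2, *Retnla* and *Fn1* are found in fewer cells with TNF.

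The libraries carried dual indices, which on plates are usually shared along rows and columns, although the sources used here do not give the layout. Each well was therefore set against the summed fragments of a member in the other wells of its row and column. For *Retnla* the rank correlation was above 0 in all 8 combinations of plate and treatment, from 0.06 to 0.45 with a median of 0.28. For *Ear2* it ran from -0.16 to 0.32 with a median of 0.12, and for *Chil3*, *Ccl24* and *Fn1* the medians were 0.04, 0.00 and 0.05. On plate 5, 85.7% of the *Retnla* fragments came from kept cells without TNF and 1.21% from kept cells with TNF, which lie in the same columns. The part of shared index reads in the low *Retnla* values was not tested.

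Mouse 2 was above mouse 1 for all 5 members under both treatments, by 1.88-fold to 16.4-fold without TNF and by 1.08-fold to 10.6-fold with TNF. Per length, the summed levels without TNF were 140 and 820 CPM per kilobase of exon (FPKM) for *Retnla*, in mouse 1 and mouse 2. They were 0.559 and 9.15 FPKM for *Ear2*, 1.61 and 3.63 for *Ccl24*, 0.236 and 2.88 for *Chil3* and 0.308 and 0.579 for *Fn1*. *Retnla* was first in both mice, and the order of *Ear2*, *Ccl24* and *Chil3* changed with the mouse. With TNF the mean levels were 19.5 FPKM for *Retnla*, 10.4 for *Ear2*, 10.2 for *Ccl24*, 6.95 for *Chil3* and 1.09 for *Fn1*. *Retnla*, at 18.7 and 20.3 FPKM in mouse 1 and mouse 2, and *Ear2*, at 1.80 and 19 FPKM, overlapped there.

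Few cells were high for 2 members. Without TNF, no cell of mouse 1 and 8 of 333 cells of mouse 2 were over 100 CPM for 2 members. With TNF, 3 of 347 and 6 of 349 cells were, and no cell was over 100 CPM for 3 members. At the other end, 95%, 83.5%, 93.9% and 88.0% of cells were over 100 CPM for none of the 5, without TNF in mouse 1 and mouse 2 and with TNF in mouse 1 and mouse 2. Over the 10 pairs, cells high for both numbered 17, where 6.78 would be expected if the members were unrelated. The pair most often high together was *Retnla* and *Ear2*, in 4 cells, where 1.06 would be expected from the counts of each if they were unrelated. *Chil3* and *Ear2* were not high together in any cell, with 0.367 expected. Over the 10 pairs and 4 sets of cells, rank correlations of CPM ran from -0.08 to 0.24 with a median of 0.07. The cells of a set share their library preparation, depth and plate, and correlations this weak in sparse counts are given as a description. Those of *Retnla* and *Ear2* were 0.14 to 0.20, and -0.05 to 0.29 at equal depth.

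Likeness was ranked over 12938 genes present in 10% or more of the cells in every set. Likeness to a member was the mean of the rank correlations over the 4 sets. *Ear2* had the closest, *Rnase2a*, a ribonuclease of its own family, with a mean of 0.23 and values of 0.21 to 0.26 in the 4 sets. The MHC class II genes *H2-Eb1* and *H2-Ab1* followed with 0.19 and 0.18. For *Ccl24* they were *Itgax*, which encodes the integrin CD11c, with 0.16, *Rnase2a* with 0.12 and *Gpx1*, a glutathione peroxidase, with 0.11. *Itgax* was at -0.01 and 0.10 without TNF and at 0.26 and 0.29 with TNF. For *Fn1* they were *Trpm2*, a calcium-permeable channel, with 0.21, *Apoe*, the lipid carrier apolipoprotein E, with 0.12 and *Rhpn2* with 0.11. *Trpm2* was at 0.34 and 0.34 in mouse 1 and at 0.10 and 0.07 in mouse 2, without and with TNF. In both lists *Apoe* was carried by mouse 2 with TNF, at 0.32 with *Fn1* and 0.37 with *Retnla*, beside at most 0.10 in the other 3 sets. For *Retnla* they were *Apoe* with 0.15, *Id3*, an inhibitor of helix-loop-helix factors, with 0.14 and *Hnmt*, which methylates histamine, with 0.13. For *Chil3* they were *Lipn*, a lipase, with 0.13, *Slc7a2*, a transporter of cationic amino acids, with 0.11 and *Zfp407* with 0.10. By Pearson correlation of log2(CPM + 1) the first 3 genes of *Ear2* were the same 3, and none of the first 3 of *Retnla* were.

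Most relatives of the members were not tested, since they did not pass the joint filter on counts and on the share of cells. None of *Retn*, *Retnlb* and *Retnlg*, the resistin family of *Retnla*, reached 1 CPM in the mean of either treatment. Of 6 chitinase and chitinase-like genes, *Chil4*, which is close in sequence to *Chil3*, did so at 1.94 and 0.872 CPM without TNF and 11.6 and 1.49 CPM with TNF in mouse 1 and mouse 2. Of the eotaxins and their receptor, *Ccr3* did so through 1 sum, at 2.59 CPM in mouse 1 with TNF, and *Ccl11* and *Ccl26* did not. Of 9 ribonucleases, 4 were tested. *Rnase4*, at 610 and 724 CPM without TNF and 105 and 253 CPM with TNF, and *Ang*, angiogenin, at 48.2 and 64.1 against 9.40 and 21.9 CPM, were called lower in the blocked fit (adjusted p of 0.0219 and 0.0193 by edgeR). They lie in 1 locus and share first exons, so their values are uncertain. Without the block 0 of the 4 passed, and 2 had an unadjusted p under 0.05. *Rnase6* was at 89.0 and 121 CPM against 19.7 and 74.6 CPM and did not pass. *Rnase2a* was at 87.0 and 252 CPM against 116 and 270 CPM, with mouse 2 above mouse 1 as for *Ear2*.

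Of 10 fibronectin receptors and cross-linkers, all tested, 0 passed without the block and 1 was called lower with it. That was *Itgb3*, the integrin β3 chain, at 25.6 and 34.3 CPM without TNF and 9.25 and 13.6 CPM with TNF (log2 fold change -1.40, adjusted p of 0.0187 by edgeR with the block). *Tgm2*, transglutaminase 2, which cross-links fibronectin, was at 14.4 and 18.9 CPM against 34.0 and 29.6 CPM, with an adjusted p of 0.0699 with the block. *Itgb1*, the most abundant receptor chain of the list, was at 328 and 290 against 284 and 265 CPM. The other chains *Itga4*, *Itga5*, *Itgav* and *Itgb5*, the syndecans *Sdc1* and *Sdc4* and the transglutaminase *F13a1* had adjusted p-values of 0.0955 to 0.446 with the block. The median log2 fold change of the list was -0.17, against 0.00 over all genes tested.

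Other secreted products of alternative activation went both ways, as the 5 members did. Of 15 tested, 5 were called higher and 3 lower with the mouse as a block and 0 without it, and the median log2 fold change was 0.07. For this list and those below, the share over all genes tested with the block was 1.94% higher and 1.88% lower. The chemokine gene *Ccl22* was at 1.07 and 0.664 CPM without TNF and 45.7 and 379 CPM with TNF, and *Ccl8* at 38.3 and 57.8 against 223 and 488 CPM. *Mmp12*, the macrophage elastase, was at 571 and 513 against 1268 and 1117 CPM. *Apoe* was at 233 and 320 against 81.9 and 91.6 CPM. These 4 passed with the block (adjusted p of 0.0279, 0.00688, 0.00798 and 0.00798 by edgeR).

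Of 17 genes from the IL4 and IL13 receptors to STAT6 and its partners, 3 were called higher and 1 lower with the block. *Il2rg*, the common γ chain of the type 1 IL4 receptor, was at 119 and 121 CPM without TNF and 334 and 315 CPM with TNF, and *Cish*, a STAT-induced inhibitor of cytokine signaling, at 1.21 and 2.83 against 7.37 and 12 CPM. Both passed with the block (adjusted p of 0.00798 and 0.0193 by edgeR). *Klf4* and *Pparg*, transcription factors of the M2 program, were at 122 and 183 against 86.0 and 78.5 CPM and at 77.0 and 78.8 against 55.5 and 40.6 CPM, and did not pass. Of 9 cell-bound M2 markers, 2 were called higher and 3 lower. *Mrc1*, the mannose receptor CD206, was at 1208 and 1209 against 558 and 758 CPM and *Clec10a*, the lectin CD301, at 261 and 336 against 84.6 and 123 CPM. *Pdcd1lg2*, which encodes PD-L2, was at 2.31 and 4.95 against 16.2 and 25.3 CPM and the scavenger receptor gene *Msr1* at 121 and 73.9 against 296 and 200 CPM. These 4 passed with the block (adjusted p of 0.0289, 0.00771, 0.0109 and 0.00865 by edgeR).

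Of 14 TNF response genes, 12 were called higher with the block and 1 without it, and their median log2 fold change was 2.27. With the block, 1.94% of all genes tested were called higher. Like the other lists, this list was chosen with earlier results of these data known, so the counts of all lists are descriptions only. *Clec4e*, the receptor Mincle, was at 19.2 and 21.7 CPM without TNF and 665 and 723 CPM with TNF (adjusted p of 0.0203 by edgeR without the block). *Saa3*, a serum amyloid, was at 0.633 and 1.63 against 130 and 129 CPM, *Marcksl1* at 5.74 and 6.37 against 46.2 and 77.8 CPM and *Sod2*, the mitochondrial superoxide dismutase, at 135 and 130 against 568 and 501 CPM. Of 11 AP-1 genes, 10 were tested and 0 passed with or without the block, and 2 had an unadjusted p under 0.05, *Batf* higher at 13.1 and 11.3 against 17.5 and 23.4 CPM and *Maf* lower at 174 and 183 against 67.3 and 118 CPM. *Junb* was at 163 and 259 against 323 and 336 CPM. At an unadjusted p under 0.05 without the block, 3 genes of the fibronectin list, 9 of the other secreted products, 5 of the receptor list and 5 of the cell-bound markers passed. Over all genes tested, 3.68% were higher and 4.43% lower at that cut. DESeq2 called 2, 9, 2 and 4 genes of these 4 lists in that order, 2 of the ribonucleases, 12 of the TNF response genes and 0 of the AP-1 genes. It called 1.98% of all genes with an adjusted p higher and 1.9% lower.

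The libraries carried macrophage markers throughout. All 8 were above 1 CPM in the 4 sums, with *Csf1r*, the M-CSF receptor, at 832 to 1352 CPM, and their summed level was 15182 and 16748 CPM without TNF and 28500 and 27314 CPM with TNF. The difference lay in *Lyz2*, lysozyme, at 11463 and 12716 CPM without TNF and 24903 and 23586 CPM with TNF, while *Fcgr1* and *Mertk* were lower with TNF in both mice. The 5 eosinophil markers summed to 1.23 and 1.41 CPM without TNF and to 6.65 and 4.93 CPM with TNF. Of these, *Siglecf* was at 0.347 and 0.641 against 4.03 and 4.45 CPM, and the granule genes *Prg2* and *Epx* were at or below 0.211 CPM in each sum. Their part in the *Ear2* and *Ccl24* levels was not tested. The 8 neutrophil markers summed to 1.03 to 5.50 CPM. The 6 fibroblast markers summed to 0.583 to 1.68 CPM, the 4 basophil and mast cell markers to 0.180 to 0.684 CPM and the 5 lymphocyte markers to 0.206 to 0.253 CPM. The 5 dendritic markers summed to 8.98 and 11.7 CPM without TNF and to 31.1 and 209 CPM with TNF, most of it *Ccr7* at 21.4 and 195 CPM, and their part in the higher *Ccl24* level was not tested. The *Retnla* cells over 100 CPM had a median of 13536 and 15058 CPM of the macrophage markers without TNF, beside 13001 and 15056 CPM over all kept cells of mouse 1 and mouse 2. They had 495952 and 466751 fragments at the median, beside 479576 and 477262. The *Ccl24* cells over 100 CPM in mouse 2 with TNF had 14461 CPM of macrophage markers at the median, beside 22949 CPM over all cells, and 7 of these 17 cells were over 10 CPM for the dendritic markers, beside 140 of 349. Over the 5 members and 4 sets, the rank correlation of CPM with total fragments ran from -0.12 to 0.13 and with detected genes from -0.11 to 0.27.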

How the data were processed

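Raw counts, with a column for each well and a line for each gene, were deposited by the authors with no normalization. Per the paper, the aligner was gsnap on mm10, and featureCounts 1.6.3 counted unique fragments on the Ensembl 98 annotation. The table's header shows that strand was not used, so a gene and an antisense neighbour cannot be separated. Mouse, treatment, plate and well came from the labels. 8 columns matching no label were not used, and 4 samples whose labels give no mouse were left out of comparisons. The 92 spike-in rows stayed out of totals and tests.

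Per plate, wells more than 3 median absolute deviations low in log fragments or genes, or high in mitochondrial or spike-in share, were removed. Summed fragments of the kept cells were 162260282 to 179757666 per mouse and treatment, and kept cells had 200235 to 6122892 fragments. PCR copies are counted, since no molecular identifiers were used, and no doublet caller was run.

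The 4 sums were tested with edgeR 4.0.16 in R 4.3.3 (glmQLFit, glmQLFTest, TMM) on 17034 genes that passed filterByExpr and were seen in 5% or more of kept cells with or without TNF. The standard error is the fold change divided by the square root of F. Alternatives were a replicate block, DESeq2 1.42.0, limma 3.58.1 on the mean of log2(CPM + 1), other scalings and filters, and each sum left out in turn. The mouse numbers pair the samples, since each number occurs with both treatments. Deviations from the treatment means correlated over genes with r = 0.562. The edgeR fit without the block was run on simulated counts with known changes, drawn without a mouse effect. The log2 differences per mouse and plate use CPM + 0.5. Thinning drew fragments without replacement. The number in a title (1 or 2) was read as the mouse, since the design text names 2 mice. The study counts them as separate experiments, so mouse, plate and experiment cannot be told apart. Without the block, p-values measure the spread between 2 mice. With the block, they measure how far the change with TNF differed between the mice.

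The members and lists were chosen with earlier results of these data known. The named genes were the members, relatives and partners with at least 1 CPM in the mean of either treatment, at most 4 genes of each other list by unadjusted p, and the 3 genes most like each member. *Rnase2a* counts under both rules. A gene that the rule also named is not reported here. Python 3.11.15, numpy 2.4.6, pandas 2.3.3, scipy 1.17.1 and matplotlib 3.10.9 were used.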

Additional observations from a re-analysis of the deposited data

Results flagged for a closer look

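Among 20 sets of 4 plate values (5 members, both treatments, the summed level and the share of cells over 100 CPM), 2 had a plate far from the other 3 by Dixon's ratio. Chance would give about 1 in 20 if the plates were independent. Plates of the same mouse are not, so this rate is only a guide. *Fn1* with IL4+IL13+TNF was at 30.0 CPM on plate 5, against 6.49, 7.03 and 6.85 CPM on plates 2, 3 and 4, and 1 cell held 44.2% of the *Fn1* fragments of that plate. The share of cells over 100 CPM of *Ear2* with IL4+IL13 was 4.05% on plate 4 (7 of 173 cells), against 0%, 0% and 0.625% on plates 2, 3 and 5, and on plate 4 of the same mouse it was 3.47% with TNF.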

How the results depend on the processing

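The direction of *Retnla*, *Chil3*, *Ccl24* and *Fn1* was the same in 14 of 14 alternatives each, and that of *Ear2* in 12 of 14. The number of genes called was 1 and became 651 with the replicate block, 598 with DESeq2, 12 with scaling to the spike-ins, 0 with limma on the mean of log2(CPM + 1) (1032 at an unadjusted p under 0.05) and 4 to 30 with each sum left out in turn. Where that leaves a treatment with 1 mouse, that sum is taken to vary as the other 2 do. *Retnla* passed the threshold with the block (-4.13), with DESeq2 (-4.63) and without the IL4+IL13 sum of mouse 1 (-5.40, adjusted p of 0.0168 by edgeR), and ran from -5.40 to -2.84 with each sum left out. Without the IL4+IL13 sum of mouse 2 it was -2.84. With the block and without the highest cell of each sum it was -4.10 and did not pass (adjusted p of 0.0550 by edgeR). *Ccl24* passed with the block (1.86), with DESeq2 (1.95) and with the block and without the highest cell of each sum (1.66), a setting chosen after seeing the data, and ran from 0.92 to 2.66 with each sum left out. *Ear2* turned to -0.04 with limma and to -1.43 without the TNF sum of mouse 2, and ran up to 4.22. *Chil3* ran from 1.26 to 4.88 and *Fn1* from 0.39 to 1.84. The block changed no other call of a member. Scaling to the spike-ins moved the median log2 fold change of all genes to 0.153, with the 5 members in the same direction. Of 60 shares of cells recomputed, 22 left their interval, 17 of them by asking for 5 fragments. The cause of these differences was not tested. Depth limits the members at few fragments: *Chil3* and *Ear2* rested on 70 and 73 fragments in mouse 1 with IL4+IL13.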

Other observations

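The labels put 4 further samples under IL4+IL13 without a mouse, and 3 of them have a column in the table. These wells had 279461, 354874 and 87198 fragments and 10802, 11121 and 8314 detected genes on plates 3, 4 and 5. The well of plate 3 held 0 fragments of each of the 5 members. The well of plate 4 held 2 fragments of *Retnla* and 1 of *Fn1*, and the well of plate 5 held 3 of *Ccl24*, 1 of *Chil3* and 1 of *Fn1*. They enter no comparison.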
